A study of Mus musculus with 2 samples.

Results

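Growth factors, niche ligands and their receptors were examined in testis RNA of Mili-/- and Mili+/- mice at day 10 after birth. Members were the genes whose symbol follows the naming of the insulin-like (Igf), fibroblast (Fgf), platelet-derived (Pdgf) and vascular (Vegf) growth factors, the Egf family, Kitl, Gdnf and its receptors, Hgf and Met, the colony stimulating factors (Csf), Lif and Ins2, with Igf2 and Igf2r left out. They numbered 64 of the 8251 genes with a probe set assigned to them alone, and were read by 92 probe sets, of which the one with the highest mean signal was used for each gene. The name pattern also took in Igf2bp1, an RNA-binding protein, and Fgfr1op2, a coiled-coil protein, which are not growth factors.

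The study set the testis of homozygous Mili mutant (Mili-/-) mice against that of heterozygous (Mili+/-) mice, so that the controls too carried the mutant allele and no wild type was included. MILI, the product of Piwil2, works with piRNAs in germ cells. Per the labels, spermatogenesis in the mutant stops in early meiotic prophase, and day 10 was chosen because dying cells were first seen at day 11. Polyadenylated RNA was measured on 1 array per genotype, and the number of mice pooled for it is not in the labels. With 1 array per genotype no test was possible, and every value below describes these 2 arrays.

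In the postnatal testis, spermatogonia depend on ligands from the somatic cells around them. Sertoli cells make GDNF, which keeps spermatogonial stem cells dividing through the co-receptor GFRA1 and the kinase RET, and KIT ligand, which acts on the receptor KIT of differentiating spermatogonia. IGF1, PDGF and FGF signals act among Sertoli, Leydig and peritubular cells, and CSF1 maintains the macrophages of the interstitium.

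On the probe sets used, Kitl and Gdnf, the ligands that act directly on spermatogonia, had almost the same signals on both arrays. Kitl had a signal of 419.9 in Mili-/- testis, against 391.9 in Mili+/- testis. Gdnf had 63.7 in Mili-/- testis, against 56.3 in Mili+/- testis. After centring each array on its median, the log2 differences (Mili-/- minus Mili+/-) were -0.01 for Kitl and 0.07 for Gdnf, where the median of all 5095 genes compared was -0.13. The central 95% of those genes lay between -0.69 and 0.58, so both ligands were well inside the general spread. A gene was compared when its signal reached the array's median on at least 1 array, which was 41.5 for Mili-/- and 38.5 for Mili+/-. Genes over this brightness filter are called past the filter below. A second probe set of Gdnf, under the filter, had 14.9 in Mili-/- and 9.8 in Mili+/- (0.49). With the mean over its probe sets Gdnf stood at 0.28.

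The receptors that these ligands act on were measured unequally. Kit, the receptor of KIT ligand and no member by its name, had 143.9 in Mili-/- testis, against 205.1 in Mili+/- testis, a log2 difference of -0.62. Kit was lower while its ligand was near 0, though -0.62 still lay inside the central 95% of all genes. Over the germ cell markers, a list that includes Kit itself, 8 of the 10 measured genes were past the filter. Their differences ran from -0.84 (Sall4) to -0.12 (Ddx4), with a median of -0.57. Sall4 (34.7 in Mili-/- and 57.4 in Mili+/-) passed through the Mili+/- array alone and so had to be lower in Mili-/-. The signals summed over all 10 were 2266.2 in Mili-/- testis and 2722.3 in Mili+/- testis. In whole tissue, fewer cells of a type and less RNA per cell cannot be told apart, and the part of the germ cells in the value of Kit was not tested. Gfra1 had 12.6 in Mili-/- testis and 7.6 in Mili+/- testis, and Ret had 2.9 in Mili-/- testis and 1.1 in Mili+/- testis. Both lay far under the array medians, and Ret was under the floor of 7 in Mili-/- and 6.3 in Mili+/- below which signals were not ordered. The response side of GDNF could therefore not be compared here.

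The other GDNF family co-receptors stood higher in the Mili-/- array at low signal. Gfra3, the co-receptor of artemin, had 46.9 in Mili-/- testis, against 30.8 in Mili+/- testis (log2 difference 0.50, 1.41-fold). Only its Mili-/- signal reached the filter, and such a gene had to be the higher one there. Gfra2, the co-receptor of neurturin, had 36.4 in Mili-/- testis and 20.6 in Mili+/- testis and did not pass.

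The promoters of Kitl and Gdnf are shown as the sequence context of the niche ligands. Those of Igf1 (0.42) and Csf3r (0.73) are shown as examples of members with larger differences. Gfra3 (0.50) and Fgf4 (0.47), whose differences exceeded that of Igf1, are not shown. Each line gives 300 bases, 250 before and 50 after an annotated start, 5′ to 3′ on the gene's strand, from RefSeq on GRCm38.p6. Capitals mark the GC box (GGGCGG), the TATA box (TATAAA) and the CCAAT box (CCAAT), searched on both strands. The windows are chr10:100015571-100015870 (plus strand) for Kitl, chr15:7809798-7810097 (plus strand, 1 of 2 starts) for Gdnf, chr10:87860861-87861160 (plus strand) for Igf1 and chr4:126024409-126024708 (plus strand) for Csf3r.
Kitl: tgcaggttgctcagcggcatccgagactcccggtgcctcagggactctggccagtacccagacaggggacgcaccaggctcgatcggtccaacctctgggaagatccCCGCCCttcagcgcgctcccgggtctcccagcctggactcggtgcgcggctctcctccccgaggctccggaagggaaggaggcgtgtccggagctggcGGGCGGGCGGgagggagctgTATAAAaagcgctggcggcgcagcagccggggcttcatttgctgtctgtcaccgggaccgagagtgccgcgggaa
Gdnf: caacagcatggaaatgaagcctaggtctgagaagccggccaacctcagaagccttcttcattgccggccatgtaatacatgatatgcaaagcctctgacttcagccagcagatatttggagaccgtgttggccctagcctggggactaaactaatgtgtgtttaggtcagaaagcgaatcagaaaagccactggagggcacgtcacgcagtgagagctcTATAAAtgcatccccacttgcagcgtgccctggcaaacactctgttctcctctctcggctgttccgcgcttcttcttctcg
Igf1: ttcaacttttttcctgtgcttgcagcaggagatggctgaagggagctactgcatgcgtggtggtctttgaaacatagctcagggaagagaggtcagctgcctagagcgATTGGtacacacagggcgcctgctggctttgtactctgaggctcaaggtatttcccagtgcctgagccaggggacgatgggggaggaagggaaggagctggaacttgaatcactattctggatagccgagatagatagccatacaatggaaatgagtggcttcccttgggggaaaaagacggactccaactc
Csf3r: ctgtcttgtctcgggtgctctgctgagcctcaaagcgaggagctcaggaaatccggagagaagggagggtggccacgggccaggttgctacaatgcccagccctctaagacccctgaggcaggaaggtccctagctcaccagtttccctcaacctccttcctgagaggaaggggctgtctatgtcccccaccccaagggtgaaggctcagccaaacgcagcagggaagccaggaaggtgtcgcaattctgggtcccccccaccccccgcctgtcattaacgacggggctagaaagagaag

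The Kitl window held 3 GC boxes, of which 2 overlap, and a TATA box that begins 25 bases before the start. The Gdnf window held a TATA box that begins 31 bases before the start and no GC box. The Igf1 window held a CCAAT box on the opposite strand and neither other motif, and the Csf3r window held none of the motifs. A window was found for 46 of the 64 members and for 20 of the 27 past the filter. Among those 20, a GC box occurred in 10, a TATA box in 5 (25.0%) and a CCAAT box in 7 (35.0%). Among all genes past the filter with a window, the shares were 71.7% for the GC box, 9.07% for the TATA box and 43.3% for the CCAAT box. Over all 32851 windows of this length in the table, a GC box occurred in 35.7%, a TATA box in 13.6% and a CCAAT box in 37.4%. These matches describe letters in the windows, and a gene with several windows counted when any held the motif.

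Of the 64 members, 27 (42.2%) were past the filter, against 61.8% of all genes measured. Of the 27, 2 passed through the Mili-/- array alone, as did 3.53% of all genes compared, and 0 through the Mili+/- array alone, as did 3.73%. None of the 27 was 2-fold higher or 2-fold lower, where 0.844% of all genes compared passed 2-fold either way (0.314% higher and 0.530% lower). The median of the 27 was -0.11, beside -0.13 over all genes compared, and 14 lay above that median and 13 below it. With the values as deposited, without centring, the medians were 0.00 for the members and -0.02 for all genes. As a measure of error, the SD between probe sets of the same gene was 0.31 on the log2 scale over 720 genes. It leaves out variation between animals and between hybridisations. Of the 27, 21 lay within that SD of the median of all genes and 6 outside it, where 25.6% of all genes compared lay outside. The 6 were Csf3r, Gfra3, Fgf4, Igf1 and Csf1, which were higher, and Igf2bp1, which was lower.

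**Figure D1:**
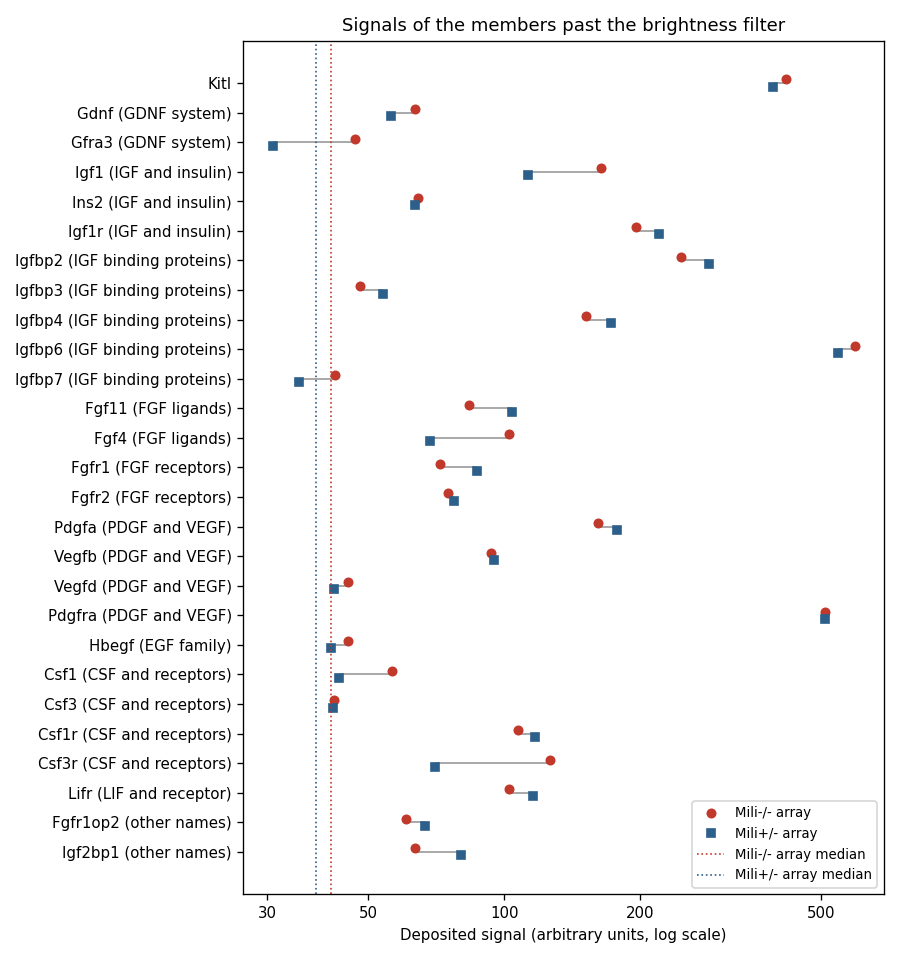
Deposited signal (arbitrary units, log axis) of the 27 members past the filter, 1 row per gene with its role in brackets. Red circles are the Mili-/- array and blue squares the Mili+/- array, 1 array each, and dotted lines are the medians of the Mili-/- (41.5) and Mili+/- (38.5) arrays. The pairs of points lie close together, with the widest gaps for Csf3r (126.0 in Mili-/- and 70.2 in Mili+/-), Gfra3 (46.9 in Mili-/- and 30.8 in Mili+/-) and Fgf4 (102.3 in Mili-/- and 68.6 in Mili+/-).

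The ligand Igf1 was higher and its receptor slightly lower in the Mili-/- array. Igf1, a growth factor that Leydig cells make in the testis, had 163.4 in Mili-/- testis, against 112.9 in Mili+/- testis (log2 difference 0.42, 1.34-fold). Its second probe set had 43.7 in Mili-/- and 36.7 in Mili+/- (0.14), higher too but by less. Igf1r, the receptor kinase for IGF1, had 195.3 in Mili-/- testis, against 220.0 in Mili+/- testis (-0.28). Among genes of like brightness, with a mean signal between 90.8 and 208, the central 95% of differences lay between -0.69 and 0.46, which takes in Igf1. The Leydig cell markers past the filter did not share its direction. Of the 5 measured Leydig genes, 4 were past the filter with a median of -0.29. Star (35.5 in Mili-/- and 38.5 in Mili+/-) passed through the Mili+/- array alone and so had to be lower in Mili-/-. Insl3, under the filter, had 18.5 in Mili-/- and 13.2 in Mili+/- (0.38). The summed signal of all 5 was 693.4 in Mili-/- testis and 774.1 in Mili+/- testis. Adipose markers moved with Igf1. Their summed signal over 7 genes was 632.4 in Mili-/- testis and 346.4 in Mili+/- testis, 6 were past the filter with differences from 0.18 to 1.36, and none of the 7 was at 0. Of those 6, 3 passed through the Mili-/- array alone and so had to be higher there, and the median was 0.77 over all 6 and 0.56 with both arrays past the filter. The parts of Leydig cells and of adipose tissue in the value of Igf1 were not tested. Ins2, an insulin gene, had 64.6 in Mili-/- and 63.5 in Mili+/- on a probe set with the suffix for shared sequence, while its other probe set was under the floor on both arrays (4.4 in Mili-/- and 2.7 in Mili+/-).

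IGF binding proteins hold IGFs in the extracellular space and set how much reaches the receptor. Of the 7 measured, 5 were past the filter, with differences from -0.31 to 0.15 and a median of -0.27. Igfbp6, which prefers IGF2, had 594.3 in Mili-/- testis and 544.6 in Mili+/- testis (0.02). Igfbp2 had 245.7 in Mili-/- and 282.8 in Mili+/- (-0.31). Igfbp4 had 151.4 in Mili-/- and 172.4 in Mili+/- (-0.30). A second probe set of Igfbp4 past the filter also stood lower, at 45.6 in Mili-/- and 57.5 in Mili+/- (-0.44), and the remaining one was near the floor. Igfbp3, the main carrier of IGF1 in blood, had 48.1 in Mili-/- and 53.9 in Mili+/- (-0.27), but its second probe set, under the filter, had 35.9 in Mili-/- and 30.8 in Mili+/- (0.11). Igfbp7, a more distant relative, had 42.3 in Mili-/- and 35.3 in Mili+/- (0.15) and passed through the Mili-/- array alone. With the mean over probe sets, the median of these 5 was -0.08. Igfbp1 and Igfbpl1 had signals of at most 12.3 on either array.

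FGF ligands were mostly dim. Of 17 genes with an Fgf name, 15 did not pass the filter and had signals of at most 16.3 in Mili-/- testis and 12.3 in Mili+/- testis. Of those 15, 7 were at or under the floor on both arrays, Fgf8, Fgf9 and Fgf10 among them. Fgf2, a factor used to culture spermatogonial stem cells, had 10.4 in Mili-/- testis and 6.3 in Mili+/- testis. No statement on these ligands beyond their low signal can be made from the arrays.

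The 2 Fgf genes past the filter went opposite ways. Fgf4, a ligand best known from the early embryo, had 102.3 in Mili-/- testis, against 68.6 in Mili+/- testis (0.47, 1.38-fold). Fgf11, an intracellular FGF homologue that is not secreted, had 83.7 in Mili-/- testis, against 104.1 in Mili+/- testis (-0.42, 1.34-fold lower). A second probe set of Fgf11, under the filter, went the other way, with 34.9 in Mili-/- and 18.6 in Mili+/- (0.80). The direction of Fgf11 is thus not settled by its own probe sets, and with their mean it stood at 0.19.

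Among the FGF receptors, Fgfr1 had 72.2 in Mili-/- testis and 87.1 in Mili+/- testis (-0.38), on a probe set with the suffix for shared sequence. Fgfr2 had 75.2 in Mili-/- and 77.4 in Mili+/- (-0.15). Its other probe sets were dim and higher in Mili-/-. The first had 17.3 in Mili-/- and 5.0 in Mili+/- (1.35), and the other 12.9 in Mili-/- and 9.1 in Mili+/- (0.39). Fgfr3, Fgfr4 and the carrier protein gene Fgfbp1 had signals of at most 26.5 on either array.

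**Figure D2:**
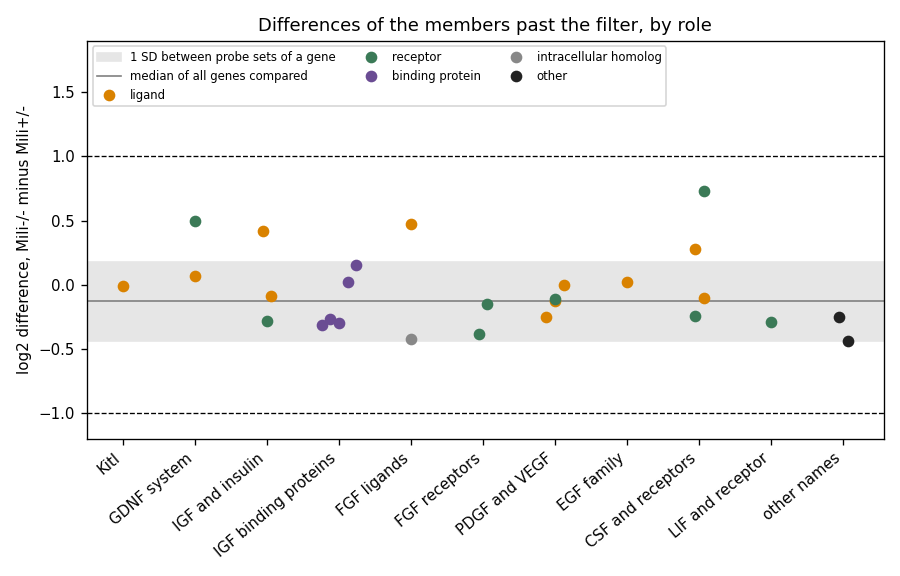
Log2 difference (Mili-/- minus Mili+/-) of the 27 members past the filter, arranged by role and coloured by class, 1 point per gene. The grey line is the median of all genes compared (-0.13), the band is 0.31 to either side of it (the SD between probe sets of a gene) and the dashed lines mark 2-fold. No point reaches a dashed line, and Csf3r (0.73) is the highest.

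Pdgfra and Pdgfa, a receptor and ligand that pair between interstitial and Sertoli cells, were close on both arrays. Pdgfra had 510.2 in Mili-/- testis and 511.6 in Mili+/- testis (-0.11). Its other probe sets were under the filter and higher in Mili-/-. The first had 32.9 in Mili-/- and 16.5 in Mili+/- (0.89), and the other 8.9 in Mili-/- and 4.2 in Mili+/- (0.39). Pdgfa had 160.9 in Mili-/- and 177.1 in Mili+/- (-0.25). The second pair of this family was dim. Pdgfrb, the receptor of mural cells, had 7.8 in Mili-/- testis and 14.4 in Mili+/- testis (-0.99), and its ligand gene Pdgfb had 21.8 in Mili-/- and 12.1 in Mili+/- (0.74). All 4 signals lay above the floor but far under the array medians, and neither gene was compared.

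Of the vascular growth factors, Vegfb had 93.6 in Mili-/- testis and 94.8 in Mili+/- testis (-0.13), equal to the median of all genes. Vegfd, a ligand of lymphatic vessels, had 45.3 in Mili-/- and 42.0 in Mili+/- (0.00). Vegfa had 6.7 in Mili-/- and 2.6 in Mili+/-, under the floor on both arrays, and Vegfc was under the filter on both. The receptor genes Kdr (39.7 in Mili-/- and 24.5 in Mili+/-) and Flt1 (17.3 in Mili-/- and 14.3 in Mili+/-) did not pass the filter. In the EGF family, Hbegf had 45.2 in Mili-/- and 41.4 in Mili+/- (0.02), while Egf and Ereg were at or under the floor. The receptor gene Egfr had 16.8 in Mili-/- and 11.1 in Mili+/- on the probe set used, and its 3 probe sets did not share a direction (0.49, 1.32 and -0.61).

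The largest difference among the 27 members was in Csf3r, the receptor for granulocyte colony stimulating factor on neutrophils and their precursors. It had 126.0 in Mili-/- testis, against 70.2 in Mili+/- testis (0.73, 1.66-fold). It was the only one of the 27 members at least 1.5-fold higher, where 2.47% of all genes compared were, and none was 1.5-fold lower, where 5.04% were. It was also the only member outside the central 95% of differences, which leaves out 5.02% of genes by its making. The other probe sets of Csf3r were dim, with 7.9 in Mili-/- and 5.0 in Mili+/- for one and 2.3 in Mili-/- and 1.5 in Mili+/- for the other, so the value rests on 1 probe set. With the mean over its probe sets Csf3r stood at 0.33. Its ligand gene Csf3 had 42.1 in Mili-/- testis and 41.8 in Mili+/- testis (-0.10).

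Csf1, the growth factor of macrophages, had 56.5 in Mili-/- testis, against 43.1 in Mili+/- testis (0.28, 1.21-fold). Its receptor gene Csf1r, a macrophage gene, had 107.4 in Mili-/- and 117.2 in Mili+/- (-0.24), near the median of all genes (-0.13). A second probe set of Csf1r, under the filter, had 33.7 in Mili-/- and 31.7 in Mili+/- (-0.02). With the mean over its probe sets Csf1r stood at -0.13. Of the 9 macrophage markers, a list that includes Csf1r itself, 8 were past the filter with differences from -0.44 to 0.68. The highest, Cx3cr1 (60.8 in Mili-/- and 35.2 in Mili+/-), passed through the Mili-/- array alone and so had to be higher there. The summed signal of all 9 was 788.6 in Mili-/- testis and 701.7 in Mili+/- testis, and none was at 0. Erythroid markers stood higher, with a summed signal of 2090.1 in Mili-/- testis and 1556.8 in Mili+/- testis over 6 genes, of which none was at 0 and 4 were past the filter (0.28 to 0.95). Of those 4, 2 passed through the Mili-/- array alone and so had to be higher there, and Epor, under the filter, stood at -0.44. Most of both erythroid sums was Hba-a1 (1827.9 in Mili-/- and 1396.8 in Mili+/-), at a difference of 0.28. The part of blood cells in the value of Csf3r was not tested. Csf2, Csf2ra, Csf2rb and Csf2rb2 did not pass the filter, with signals of at most 34.1 on either array.

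Lifr, the receptor of leukaemia inhibitory factor, had 102.3 in Mili-/- testis and 115.6 in Mili+/- testis (-0.29). Its other 4 probe sets were under the filter and spread from -0.92 to 0.22. Il6st, the gp130 chain that LIFR pairs with, had 247.5 in Mili-/- and 254.9 in Mili+/- (-0.15). Lif itself was not analysed here. Hgf had 5.9 in Mili-/- and 2.6 in Mili+/-, and its receptor gene Met 2.4 in Mili-/- and 2.1 in Mili+/-, all under the floor. Igf2bp1 had 63.7 in Mili-/- testis, against 80.3 in Mili+/- testis (-0.44), and Fgfr1op2 had 60.7 in Mili-/- and 67.0 in Mili+/- (-0.25).

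**Figure D3:**
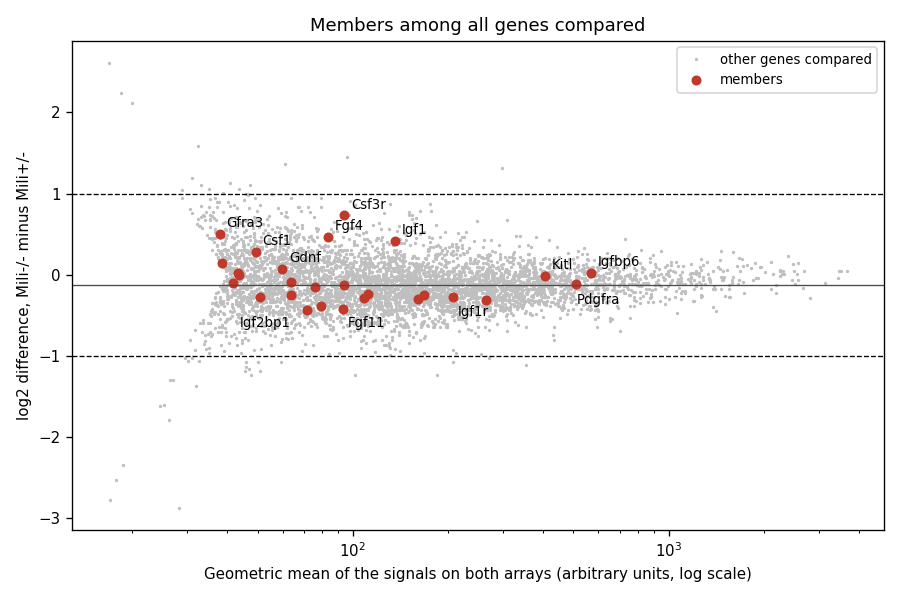
Log2 difference (Mili-/- minus Mili+/-) against the geometric mean of the signals on both arrays (arbitrary units, log axis) for the genes compared, grey points, and the 27 members, red points. Dashed lines mark 2-fold and the solid line the median of all genes (-0.13). The members lie inside the grey cloud at every brightness, with Csf3r at its upper edge.

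By class, the 11 ligands past the filter had a median of 0.00 and 9 of them lay above the median of all genes. The 8 receptors had a median of -0.19 with 3 above it, and the 5 binding proteins a median of -0.27 with 2 above it. The order of ligands over receptors was not kept with the mean over probe sets, where the medians were 0.00 for ligands and 0.10 for receptors. The values of Pdgfra (0.39), Fgfr2 (0.53), Fgf11 and Csf3r moved by more than 0.31 under that setting. Those means take in the dim probe sets given above.

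**Figure D4:**
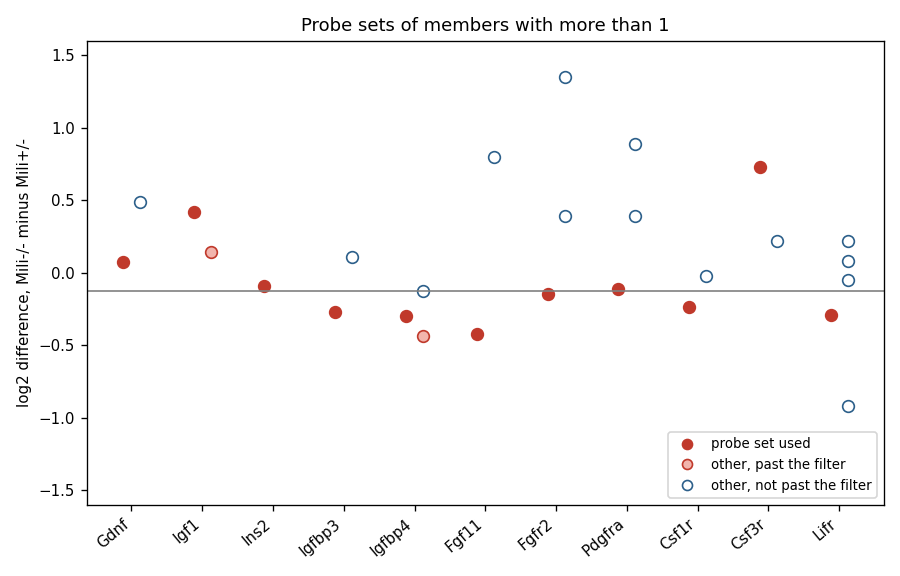
Log2 difference (Mili-/- minus Mili+/-) of each probe set of the 11 members past the filter that have more than 1, leaving out probe sets at or under the floor on both arrays. Filled red is the probe set used, pale red another past the filter and open blue another under it, and the grey line is the median of all genes compared. Second probe sets past the filter exist for Igf1 (0.14) and Igfbp4 (-0.44) and lie on the same side of the line as the one used, while open points scatter from -0.92 for Lifr to 1.35 for Fgfr2.

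The 37 members under the filter were not compared. Of them, 18 were at or under the floor on both arrays. The other 19 had signals of at most 36.4 in Mili-/- and 34.1 in Mili+/-, and their log2 differences ran from -0.99 (Pdgfrb) to 0.86 (Igfbpl1), 10 above 0 and 9 below. With the floor none of the 19 reached 2-fold, where 11.4% of all 2307 such genes under the filter did. Without it 3 of them did, Igfbpl1 (12.3 in Mili-/- and 2.3 in Mili+/-), Fgf17 (11.3 in Mili-/- and 2.9 in Mili+/-) and Vegfc, which was lower in Mili-/-. At such signals these arrays give no usable difference.

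Other genes of these pathways, listed by function, were also centred near the median of all genes. Of 65 receptors, adaptors, kinases, feedback genes and proteoglycans listed, 47 were measured and 30 were past the filter. Their median was -0.14, beside -0.13 over all genes, with 14 above and 16 below that median, and none was 2-fold higher or lower. Their differences ran from -0.64 to 0.69, lower at the bottom than the members past the filter (-0.44 to 0.73). The largest differences were in Cbl, a ubiquitin ligase that turns receptor kinases off (42.7 in Mili-/- and 24.6 in Mili+/-, 0.69), which passed through the Mili-/- array alone. Sdc4, a heparan sulfate proteoglycan, had 64.4 in Mili-/- and 92.9 in Mili+/- (-0.64). Sos1, which activates RAS, stood at -0.53, Nrp1, a VEGF co-receptor, at -0.47 and the glypican gene Gpc4 at -0.44, beside Kit at -0.62. The 3 target genes of FGF signalling picked from this list did not share a direction, with Dusp6 at -0.26, Spry4 at 0.26 and Etv4 at 0.36.

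Markers of testis cells were present on both arrays. All 12 measured Sertoli genes and 9 of 10 peritubular and stromal genes were past the filter, with medians of 0.06 and 0.02. Endothelial markers had 4 of 8 past the filter, between -0.60 and 0.45. Pecam1 (51.2 in Mili-/- and 34.7 in Mili+/-, 0.45) passed through the Mili-/- array alone and so had to be higher there. The endothelial median was 0.10 over the 4 and -0.25 with both arrays past the filter. Under the filter, Kdr (0.59), Tek (0.36) and Tie1 (0.75) stood higher and Vwf (-0.24) lower. No probe set was assigned to Piwil2, so the genotypes rest on the labels.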

How the data were processed

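Each genotype was measured on 1 array. The authors deposited 1 linear intensity per probe set and array, and the software behind it is not given in the sources used here. Leaving out the top and bottom 2% of non-control probe sets, the deposited intensities averaged 99.52 for Mili-/- and 99.54 for Mili+/-. The table held 12488 probe sets, 66 of them controls, which were left out. The platform annotation gave 1 symbol for 10833 probe sets, several for 396 and none for 1193. For 10817 of the probe sets with 1 symbol, the symbol was taken by Entrez ID from a RefSeq table (GRCm38.p6).

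Signals under an array's 20th percentile were set to it, log2 was taken, and each array's median over all non-control probe sets was subtracted. This lowered every log2 difference by 0.11. The median of all genes compared was -0.02 without centring and -0.13 with it, so a difference is to be read beside -0.13 and not beside 0. No p-value is given. The number of arrays limits the precision. Members, roles, lists and settings were chosen with earlier results of these data known. Every member past the filter was named, with partners of ligand and receptor pairs, the 6 pathway genes with the largest differences and a few markers. Dusp6, Spry4 and Etv4 were picked with their values known. Alternatives covered scaling, floor, filter, probe sets and fold threshold. The code was tested on simulated data. Python 3.11.15, NumPy 2.4.6, pandas 2.3.3 and statsmodels 0.14.6 were used.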

Additional observations from a re-analysis of the deposited data

Results flagged for a closer look

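A probe set assigned to both Csf2rb2 and Csf2rb was outside the comparisons because it has 2 symbols. It had a signal of 32.9 in Mili-/- testis, above the 11.9 of the Mili+/- control (log2 difference 1.36, 2.56-fold). Both signals were under the array medians of 41.5 in Mili-/- and 38.5 in Mili+/-. The probe sets used for these genes singly had 20.2 in Mili-/- and 11.7 in Mili+/- for Csf2rb2 (0.68), and 5.5 in Mili-/- and 5.3 in Mili+/- for Csf2rb. Another probe set of Csf2rb2 alone had 1.4 in Mili-/- and 3.9 in Mili+/-, under the floor on both arrays.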

How the results depend on the processing

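No paired analysis was possible because each genotype has 1 array, and no replicate could be left out. The median of the members was 0.00 without centring, -0.01 after quantile normalization, loess (span 0.4) and with the mean over probe sets, and 0.04 without the filter. The signalling list stood at -0.03, -0.01 and -0.02 without centring, after quantile normalization and after loess, where the median of all genes moved alike to -0.02, -0.01 and -0.01. At the 2-fold threshold no member passed when 1 choice was changed at a time, and at a threshold of 1.5 there was 1 higher. With neither filter nor floor, an alternative chosen after seeing the data, 6 members of 64 were 2-fold higher and 1 lower, all 7 under the filter, the members' median was 0.01, 27 members lay below the median of all genes and 721 genes passed 2-fold. Members below the median of all genes numbered 24 of 64 without the filter and 4 of 8 with it at the 75th percentile. Without the filter, the 18 members at the floor on both arrays all read 0.04 by construction, which sets the median of 0.04 and bears on the count of 24. Genes past the threshold either way were 43 as reported, 28 with the floor at the 40th percentile, 305 without the filter, 7 with it at the 75th percentile, 8 with both arrays past it, 383 at 1.5-fold and 10 at 3-fold. The split of those 43 was 16 higher and 27 lower, against 30 and 17 without centring, 24 and 24 under quantile normalization and 25 and 23 under loess. Of 187 values of single members under other settings, 4 moved by more than 0.31, all with the mean over probe sets. Many of the 187 could hardly move. Changing the floor left every member's value as it was, and leaving out centring added the same 0.11 to each. The mean over probe sets could change only the 11 members past the filter with more than 1 probe set, and the 4 were among these 11. Settings for the classes, roles and marker lists were added after the data were seen. The shifts without centring are the constant of 0.11 that centring subtracts, and the cause of the other shifts was not tested.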

Other observations

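A probe set shared by Tmem119 and Igfbp5 was past the filter and had 100.9 in Mili-/- testis and 115.1 in Mili+/- testis (log2 difference -0.30), close to Igfbp2 (-0.31) and Igfbp4 (-0.30). No probe set was assigned to Igfbp5 alone, so the gene behind this signal is not named.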
